A study of Mus musculus with 12 samples.

Results

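The genes described here are 10 genes of lipid droplets and fatty acid uptake, measured by RNA sequencing in mouse liver: the perilipins Plin2, Plin4 and Plin5, the CIDE genes Cideb and Cidec, the lipase genes Pnpla2 and Pnpla3, the lipase inhibitor G0s2, the fatty acid transporter Cd36 and the nuclear receptor gene Pparg. They were taken by symbol from a deposited table of 54532 gene IDs, and each symbol had 1 ID there. The mice were wild-type C57BL/6J, an inbred laboratory strain, and no other allele is named. CD mice had a diet of that name, which the labels do not spell out, and HFD mice had a high-fat diet. CD_DSS and HFD_DSS mice had the same diets with 2% DSS, dextran sulfate sodium, which damages the colon lining and serves as a model of colitis. The sources used here do not give age, sex, or the route and duration of either treatment. Each group had 3 libraries, numbered 1 to 3, and the labels do not say whether these came from separate mice, so p-values refer only to the spread among these libraries, which may be technical.

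Liver cells store surplus fatty acids as triglyceride in lipid droplets, which swell in number and size in fatty liver. Perilipins coat the droplet, CIDE proteins join droplets or load lipid onto lipoproteins, and lipases release the fatty acids again. CD36 carries fatty acids across the plasma membrane. PPARγ, the product of Pparg, is a nuclear receptor that is abundant in adipocytes and sparse in normal liver, and it switches on genes of lipid storage, Plin2, Plin4, Cidec and Cd36 among them.

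Expression is given as FPKM, fragments per kilobase of exon and per M fragments, as deposited by the authors and already scaled between libraries. The depth was 23.4 to 29.4 M fragments per library. The liver markers were present, with albumin (Alb) at 16129.5 to 37497.9 FPKM. Libraries HFD 1, CD_DSS 1 and HFD_DSS 2 stood apart from their groups in the acute phase gene Saa1. At 579 FPKM, HFD 1 was far above the 19.9 and 22.4 FPKM of the other HFD libraries. At 9.14 FPKM, CD_DSS 1 was far below the 595 and 483 FPKM of its group, and HFD_DSS 2, at 191 FPKM, was below the 1104 and 2670 FPKM of the other HFD_DSS libraries. All stayed in the comparisons, and where leaving them out changed a call among the 10 genes, both values are given. In whole liver, fewer cells of a type and less RNA per cell cannot be told apart.

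Promoter sequence is shown because PPARγ binds, with its partner RXR, repeats of the half-site AGGTCA. The windows are the 250 bases before an annotated start, from RefSeq on GRCm38.p6, written 5′ to 3′ on the strand of the gene. Capitals mark AGGTCA, or TGACCT where it lies on the opposite strand. Shown are Plin2 (chr4:86670060-86670309, minus strand), the first Pparg start (chr6:115360894-115361143, plus strand) and Pnpla3 (chr15:84167566-84167815, plus strand), the last as a promoter of a gene with a pattern close to that of Pparg.
Plin2: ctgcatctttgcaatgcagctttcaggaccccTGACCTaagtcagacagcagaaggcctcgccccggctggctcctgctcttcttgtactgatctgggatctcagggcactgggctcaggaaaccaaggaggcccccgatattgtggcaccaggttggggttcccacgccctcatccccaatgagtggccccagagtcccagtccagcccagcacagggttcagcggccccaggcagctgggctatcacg
Pparg: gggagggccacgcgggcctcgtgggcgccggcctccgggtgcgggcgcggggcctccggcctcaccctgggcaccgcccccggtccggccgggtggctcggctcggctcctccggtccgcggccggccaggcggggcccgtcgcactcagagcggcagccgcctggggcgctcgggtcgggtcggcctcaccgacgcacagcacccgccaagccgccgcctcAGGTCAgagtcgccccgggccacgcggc
Pnpla3: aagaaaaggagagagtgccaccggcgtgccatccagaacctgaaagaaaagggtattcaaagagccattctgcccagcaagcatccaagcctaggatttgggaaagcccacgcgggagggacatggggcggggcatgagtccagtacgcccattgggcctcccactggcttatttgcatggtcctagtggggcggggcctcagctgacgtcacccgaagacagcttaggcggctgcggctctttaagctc

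All 10 genes matched the RefSeq table, with 14 windows between them. The half-site, searched on both strands, was present in 5 windows of 4 genes. It began 218 bases before the start of Plin2, 170 before Plin5, 228 before Cd36, and 28 and 9 before separate starts of Pparg. Of all 32851 mouse promoters of the same length, 14.0% held it. The direct repeat of AGGTCA, N and AGGTCA, which contains the half-site in both its parts, stood in 0.0335% of all promoters and its looser form of AGGNCA, N and AGGNCA in 0.338%, and neither stood in a window of the 10 genes. Matches describe the letters in these windows and were not tied to binding or to the values below.

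By mean over the 12 libraries, the order of the levels in FPKM was Plin2, Cideb, G0s2, Plin5, Pnpla2, Cd36, Pparg, Cidec, Plin4 and Pnpla3. Plin2 was above every other gene of the set in each library, at 3.11 to 4.88 times the FPKM of Cideb. The FPKM of Pnpla2 was 1.80 to 3.13 times that of Cd36, and that of Cd36 was 2.65 to 7.05 times that of Pparg. The ranges of the other neighbours in this order overlapped. G0s2 was under Cideb in 9 of 12 libraries and above Plin5 in 8, Plin5 was above Pnpla2 in 9, and Pparg was above Cidec in 9. Pnpla3 was the lowest of the 10 and fell under the filter of 1 FPKM in 3 libraries, so that 9 of the 10 genes were tested among 10806.

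**Figure D1:**
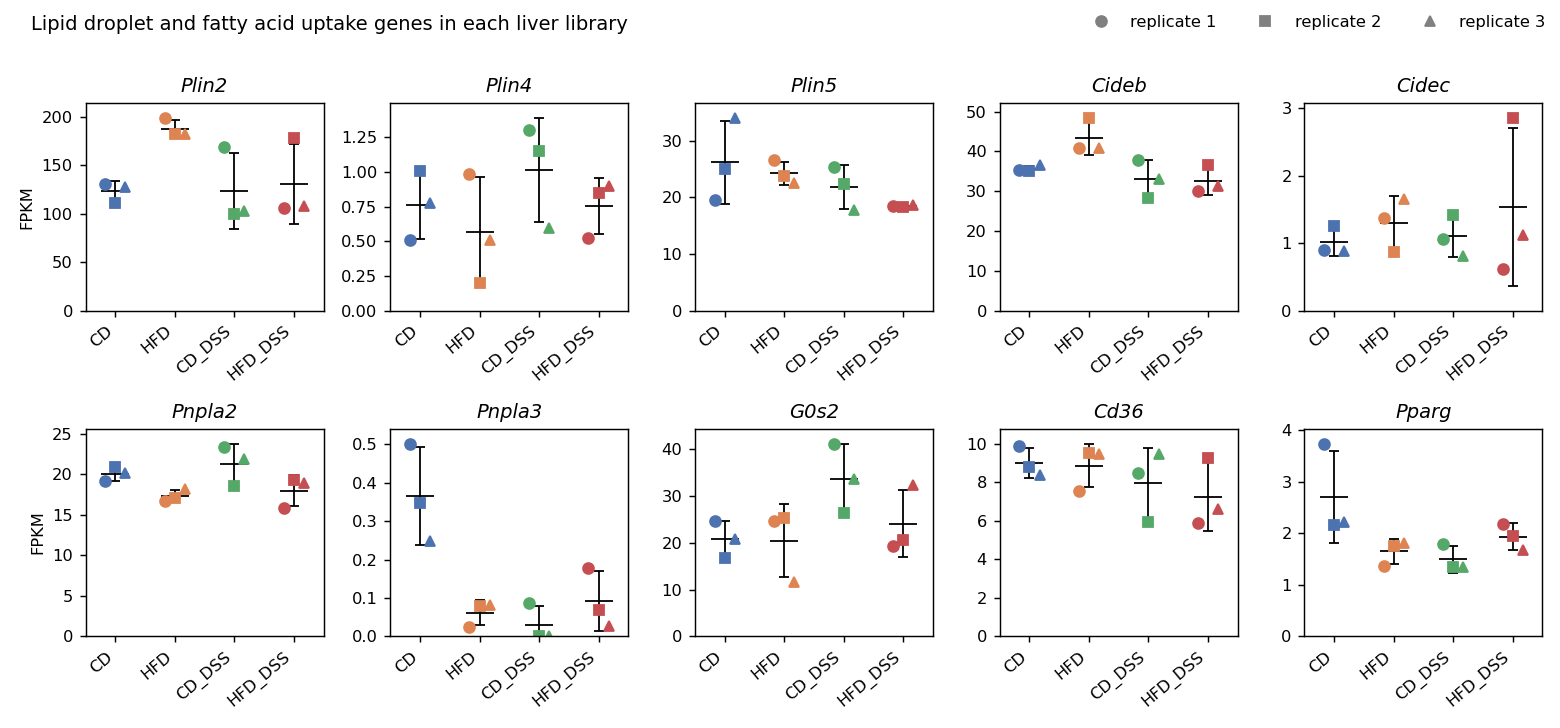
Level of each of the 10 genes in FPKM (linear axis from 0) in the 3 libraries of each group, 1 point per library, with the group mean and SD as bars. Plin2 and Cideb are higher in all 3 HFD than in all 3 CD libraries, Pnpla3 is highest in the 3 CD libraries, Pparg is higher in CD than in HFD and CD_DSS, and in Plin2 the libraries CD_DSS 1 and HFD_DSS 2 lie above the other DSS libraries.

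None of the 9 tested genes passed in any of the 7 comparisons (limma on log2(FPKM + 1), Benjamini-Hochberg over all genes tested, threshold 0.05). At an unadjusted p under 0.05 there were 3 in HFD against CD (Plin2, Cideb, Pparg), 2 in CD_DSS against CD (G0s2, Pparg), 2 in HFD_DSS against HFD (Plin2, Cideb) and 1 in HFD_DSS against CD_DSS (Pnpla2). There was 1 for the diet effect averaged over both DSS states (Pnpla2), 3 for the DSS effect averaged over both diets (Plin5, Cideb, G0s2) and 1 for the difference between the DSS effects (Pparg). Voom on recovered fragments also called 0 in 6 of the comparisons and called Cideb in the averaged DSS effect (adjusted p = 0.0477), where it called 2193 of 10804 genes. Of all genes tested, limma called 0.00925% in HFD against CD, 4.80% in CD_DSS against CD, 4.83% in HFD_DSS against HFD and 0.102% in HFD_DSS against CD_DSS. These shares for DSS on a single diet rest on few libraries: 519 genes were called in CD_DSS against CD with all libraries, and 63 to 1271 with 1 left out, fewest without CD_DSS 3 and most without CD_DSS 1. In HFD_DSS against HFD 522 were called with all libraries, and 9 to 904 with 1 left out, fewest without HFD 2 and most without CD_DSS 1. Limma called 0.342% for the averaged diet effect, 20.0% for the averaged DSS effect and 0.00925% for the difference between DSS effects. The comparisons share samples: CD enters both the diet comparison and the DSS comparison on that diet, and HFD likewise.

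Where a group's 3 libraries all lay above or all below those of the other group, the groups are said not to overlap. This held for 4 of the 9 genes in HFD against CD (Plin2 and Cideb higher, Pnpla2 and Pparg lower), beside 13.1% of all genes tested, 6.58% higher and 6.54% lower. It held for 2 of 9 in CD_DSS against CD (G0s2 higher, Pparg lower), beside 27.0% of all genes tested, and for 3 of 9 in HFD_DSS against HFD (Plin2, Plin5 and Cideb lower), beside 27.1%. In HFD_DSS against CD_DSS it held for 0 of 9, beside 16.5%. The 2 counts for DSS lie near their background.

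Plin2 (ENSMUSG00000028494, mm10 chr4:86648386-86670060, minus strand) encodes perilipin 2, the main coat protein of droplets in liver cells. It had 131, 111 and 128 FPKM in CD 1 to 3 and 199, 182 and 182 in HFD 1 to 3. With DSS, the CD_DSS libraries 1 to 3 had 169, 99.3 and 103, and the HFD_DSS libraries 106, 178 and 108. All HFD libraries lay above all libraries of the other groups, and in each DSS group 1 library, CD_DSS 1 or HFD_DSS 2, lay far above the other 2. The means were 123 ± 10.7 in CD, 188 ± 9.52 in HFD, 124 ± 38.9 in CD_DSS and 131 ± 41.3 in HFD_DSS (SD, n = 3 each).

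Plin2 differed by 0.61 on the log2 scale between HFD and CD (SE 0.22, 95% interval 0.11 to 1.10, 1.52-fold of FPKM + 1), which did not pass (limma adjusted p = 0.619). DSS on the high-fat diet gave −0.56 (SE 0.22, interval −1.05 to −0.07, limma adjusted p = 0.160), and on the CD diet −0.03 (SE 0.22, interval −0.53 to 0.46, limma adjusted p = 0.950). The difference between these DSS effects was −0.53 (SE 0.32, limma adjusted p = 1.00). Without HFD_DSS 2, Plin2 was called lower in HFD_DSS against HFD (log2 fold change −0.81, limma adjusted p = 0.0363), and without HFD 1, CD_DSS 1 and HFD_DSS 2 together it was −0.77 (limma adjusted p = 0.00190). The averaged DSS effect of Plin2, −0.30 with all libraries (limma adjusted p = 0.208), was −0.42 without CD_DSS 1 and also without HFD_DSS 2 (limma adjusted p = 0.0419 and 0.0462), and −0.52 without HFD 1, CD_DSS 1 and HFD_DSS 2 together (limma adjusted p = 0.000822). More of all 10806 genes were called at these settings too. In HFD_DSS against HFD it was 522 with all libraries, 879 without HFD_DSS 2 and 2027 without the 3. For the averaged effect it was 2157 with all, 2664 without CD_DSS 1, 2377 without HFD_DSS 2 and 3372 without the 3. The libraries CD_DSS 1 and HFD_DSS 2 left out here had the highest Plin2 of their groups.

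Beside Saa1, the libraries with the higher Plin2 in each DSS group were those with the lowest Saa1 of that group. HFD 1 did not follow this order, with the highest Saa1 and the highest Plin2 of the untreated libraries. The part that the acute phase level plays in Plin2 was not tested.

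**Figure D2:**
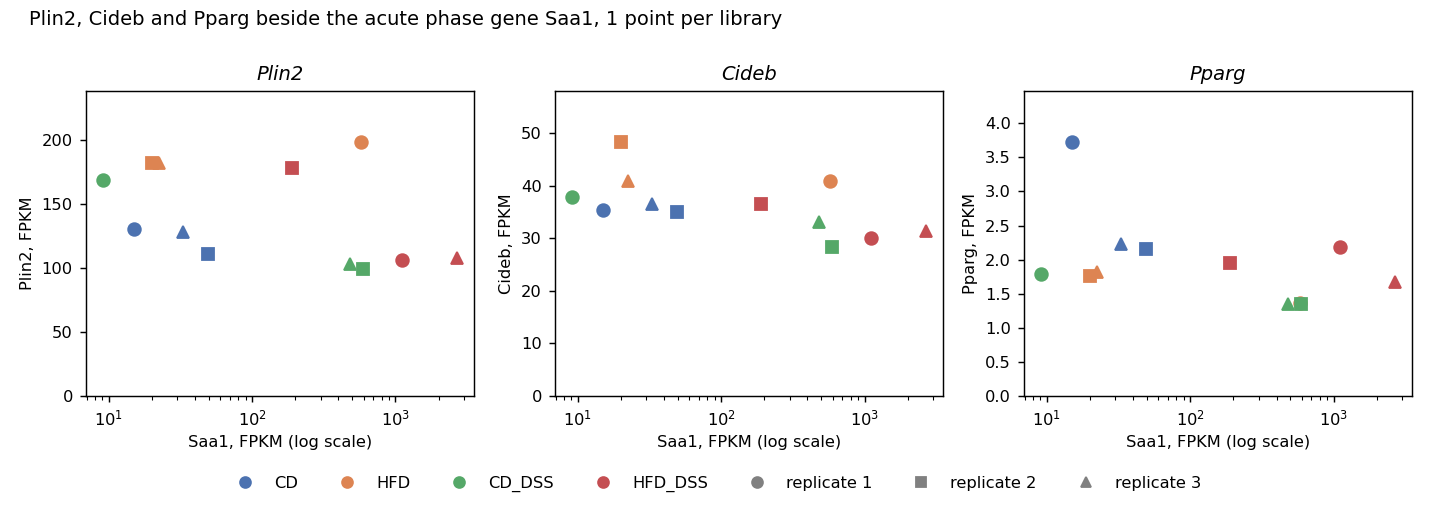
Plin2, Cideb and Pparg in FPKM (linear axes) against Saa1 in FPKM (log axis), 1 point per library, coloured by group. CD_DSS 1 and HFD_DSS 2 have the lowest Saa1 and the highest Plin2 of their groups, while HFD 1 has 579 FPKM of Saa1 and 199 FPKM of Plin2.

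Plin5 and Plin4 are neighbours on chromosome 17. Plin5 (ENSMUSG00000011305, mm10 chr17:56111601-56117596, minus strand) encodes perilipin 5, which holds droplets close to mitochondria in tissues that oxidise fatty acids. It had 19.5, 25.0 and 34.0 FPKM in CD 1 to 3, 26.5, 23.7 and 22.5 in HFD, 25.4, 22.4 and 17.8 in CD_DSS and 18.4, 18.3 and 18.6 in HFD_DSS. The HFD_DSS libraries were below all HFD libraries and almost equal to each other (18.4 ± 0.150, SD, n = 3), whereas CD spanned the widest range (26.2 ± 7.30). The log2 fold change was −0.38 in HFD_DSS against HFD (SE 0.17, limma adjusted p = 0.219) and −0.30 for the averaged DSS effect (SE 0.12, limma adjusted p = 0.107). Without CD 1, the lowest CD library, the averaged effect was called (−0.39, limma adjusted p = 0.0319), as were 1794 of all 10806 genes.

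Plin4 (ENSMUSG00000002831) encodes perilipin 4, a coat protein best known from adipocytes. Its level was 0.200 to 1.30 FPKM over the 12 libraries, the groups overlapped in all comparisons, and the log2 fold changes lay between −0.19 and 0.19. Values this near the pseudocount of 1 understate fold changes.

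Cideb (ENSMUSG00000022219, mm10 chr14:55754050-55758458, minus strand) is the CIDE gene of normal liver, and its protein takes part in loading lipid onto very low density lipoprotein. It had 35.4, 35.0 and 36.5 FPKM in CD 1 to 3 and 40.9, 48.4 and 40.9 in HFD 1 to 3. The CD_DSS libraries had 37.9, 28.4 and 33.1, and the HFD_DSS libraries 30.0, 36.6 and 31.4. As with Plin2, the 3 HFD libraries were the highest of all 12, and CD_DSS 1 and HFD_DSS 2 came next.

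The log2 fold change of Cideb was 0.27 in HFD against CD (SE 0.12, limma adjusted p = 0.709) and −0.40 in HFD_DSS against HFD (SE 0.12, interval −0.66 to −0.14, limma adjusted p = 0.0729). The averaged DSS effect was −0.26 (SE 0.08, interval −0.44 to −0.07, limma adjusted p = 0.0515), the lowest adjusted p of the 9 genes in any comparison. Without CD_DSS 1 it was −0.31 and without HFD_DSS 2 −0.30, and both were called (limma adjusted p = 0.0175 and 0.0304). In HFD_DSS against HFD it was called without HFD_DSS 2 (−0.48, limma adjusted p = 0.0426) and without CD_DSS 1, which enters that comparison through the shared spread (−0.40, limma adjusted p = 0.0424). Without HFD 1, CD_DSS 1 and HFD_DSS 2 together, HFD_DSS against HFD gave −0.52 (limma adjusted p = 0.0133) and the averaged DSS effect −0.37 (limma adjusted p = 0.00652). As given for Plin2, these settings raised the calls over all genes, and without CD_DSS 1 HFD_DSS against HFD had 904 of 10806, beside 522 with all libraries.

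Of the exon bases of Cideb, 76.3% overlap Nop9 on the opposite strand, and the sources used here do not say whether counting used strand, without which reads of the pair cannot be told apart. Nop9 was listed at 4.77 to 6.29 FPKM, with a log2 fold change of 0.10 in HFD against CD and −0.07 in HFD_DSS against HFD, and it was called in neither.

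Cidec (ENSMUSG00000030278), also known as FSP27, fuses droplets into larger ones and is induced in fatty liver. It had 0.901, 1.25 and 0.886 FPKM in CD 1 to 3, 1.37, 0.867 and 1.66 in HFD, 1.07, 1.42 and 0.810 in CD_DSS and 0.621, 2.85 and 1.13 in HFD_DSS. HFD_DSS 2 was the highest library and HFD_DSS 1 the lowest, so that 1 group spanned the whole range. HFD against CD gave a log2 fold change of 0.18 (SE 0.26, interval −0.40 to 0.76, limma adjusted p = 0.965).

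Pnpla2 (ENSMUSG00000025509, mm10 chr7:141455198-141460743, plus strand) encodes ATGL, the lipase of the first step of triglyceride breakdown. It had 19.1, 21.0 and 20.2 FPKM in CD 1 to 3, 16.8, 17.1 and 18.2 in HFD, 23.4, 18.5 and 22.0 in CD_DSS and 15.8, 19.3 and 18.9 in HFD_DSS. HFD libraries were all below CD libraries, and with DSS the diets overlapped. The log2 fold change was −0.20 without DSS (SE 0.10, limma adjusted p = 0.783) and −0.23 with DSS (SE 0.10, limma adjusted p = 0.456). The averaged diet effect was −0.21 (SE 0.07, interval −0.37 to −0.06, 1.16-fold of FPKM + 1, limma adjusted p = 0.244).

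G0s2 (ENSMUSG00000009633, mm10 chr1:193272161-193273217) encodes an inhibitor that binds ATGL. It had 24.7, 16.8 and 20.9 FPKM in CD 1 to 3, 24.7, 25.3 and 11.6 in HFD, 41.1, 26.4 and 33.7 in CD_DSS and 19.3, 20.6 and 32.5 in HFD_DSS. All CD_DSS libraries were above all CD and all HFD libraries, while HFD_DSS overlapped each other group. CD_DSS against CD gave a log2 fold change of 0.67 (SE 0.29, interval 0.02 to 1.31, limma adjusted p = 0.199), HFD_DSS against HFD gave 0.26 (SE 0.29, limma adjusted p = 0.627), and the difference between these effects was −0.40 (SE 0.41, limma adjusted p = 1.00). The ratio of G0s2 to Pnpla2 in FPKM was 1.29, 0.802 and 1.04 in CD, 1.47, 1.48 and 0.635 in HFD, 1.76, 1.42 and 1.53 in CD_DSS and 1.22, 1.07 and 1.72 in HFD_DSS. These ratios were above 1 in all 6 DSS libraries and in 4 of the 6 others.

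Pnpla3 (ENSMUSG00000041653, mm10 chr15:84167837-84187236, plus strand) encodes adiponutrin, a droplet protein related to ATGL that is known from inherited risk of human fatty liver and is controlled by SREBP-1c. It had 0.501, 0.347 and 0.247 FPKM in CD 1 to 3, 0.0252, 0.0800 and 0.0806 in HFD, 0.0866, 0 and 0 in CD_DSS and 0.179, 0.0697 and 0.0270 in HFD_DSS. The 3 CD libraries lay above all 9 others. In recovered fragments the 3 libraries of a group summed to 42 in CD (95% Poisson interval 30.3 to 56.8), 7 in HFD (2.81 to 14.4), 4 in CD_DSS (1.09 to 10.2) and 10 in HFD_DSS (4.80 to 18.4), intervals that cover counting error only. A count of 0 allows up to 3 fragments, or 0.0786 FPKM in CD_DSS 2 and 0.0810 in CD_DSS 3.

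Pnpla3 was not tested because of the filter. With no filter, it was called in CD_DSS against CD, where 157 of 25911 genes were (log2 fold change of FPKM + 1 −0.40, SE 0.07, limma adjusted p = 0.0428; voom on fragments with no filter, added after Pnpla3 was seen to be filtered out, −3.87, SE 0.70, adjusted p = 0.0162). The limma call ended without CD 1, CD 2, HFD 1, HFD 2, HFD 3, CD_DSS 2 or CD_DSS 3 (adjusted p from 0.0578 to 0.152). HFD against CD gave −0.36 (limma adjusted p = 0.345).

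Cd36 (ENSMUSG00000002944, mm10 chr5:17781690-17888801) encodes the fatty acid transporter, which endothelial cells and macrophages carry as well as liver cells. It had 9.87, 8.79 and 8.36 FPKM in CD 1 to 3, 7.57, 9.54 and 9.49 in HFD, 8.51, 5.92 and 9.47 in CD_DSS and 5.87, 9.27 and 6.63 in HFD_DSS. The groups overlapped in every comparison, and the lowest values were those of CD_DSS 2, HFD_DSS 1 and HFD_DSS 3. HFD against CD gave a log2 fold change of −0.02 (SE 0.17, interval −0.41 to 0.36, limma adjusted p = 0.991) and the averaged DSS effect −0.22 (SE 0.12, limma adjusted p = 0.222). Without HFD 1, CD_DSS 1 and HFD_DSS 2 together the averaged DSS effect was −0.38 (limma adjusted p = 0.0381). Of all 10806 genes, 3372 were then called, beside 2157 with all libraries.

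Of the genes tested, leaving out clone and prediction names, Ankle2 (mean distance 0.318 SD) and the endothelial receptor gene Kdr (0.327 SD) lay nearest to Cd36. Kdr had 3.86 to 9.93 FPKM and was also lowest in HFD_DSS 1. Its mean was lower with DSS on both diets, and the other endothelial markers were mixed. On the CD diet Stab2, Clec4g (29.9 beside 21.2 FPKM), Lyve1, Pecam1, Cdh5, Fcgr2b and Vwf had higher means with DSS. On the high-fat diet Clec4g, Lyve1 (6.95 beside 4.78) and Cdh5 had higher means with DSS. Stab2 (7.35 beside 8.34), Pecam1 (4.22 beside 4.70), Fcgr2b (9.88 beside 9.96) and Vwf (0.562 beside 0.599) had lower means there. Summed endothelial markers, 7 of 8 with a mean of at least 1 FPKM, had 69.7 to 76.0 FPKM in CD, 59.2 to 73.0 in HFD, 76.3 to 101 in CD_DSS and 62.6 to 76.2 in HFD_DSS. Summed macrophage markers, 9 of 11 at that level, had 197 to 250, 197 to 305, 215 to 414 and 266 to 395. Their part in the Cd36 values was not tested.

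Pparg (ENSMUSG00000000440, mm10 chr6:115360951-115490399, plus strand) had 3.73, 2.16 and 2.23 FPKM in CD 1 to 3 and 1.36, 1.76 and 1.82 in HFD 1 to 3. The CD_DSS libraries had 1.79, 1.35 and 1.34, and the HFD_DSS libraries 2.19, 1.95 and 1.67. The CD libraries lay above the HFD and CD_DSS libraries without overlap, and CD 1 was far above the other 2. HFD_DSS 1, at 2.19, reached into the range of CD.

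Pparg had a log2 fold change of −0.46 in HFD against CD (SE 0.15, interval −0.80 to −0.13, limma adjusted p = 0.543) and −0.55 in CD_DSS against CD (SE 0.15, interval −0.89 to −0.21, limma adjusted p = 0.0666). DSS on the high-fat diet gave 0.15 (SE 0.15, limma adjusted p = 0.595). The difference between the DSS effects on the 2 diets was 0.70 (SE 0.22, interval 0.22 to 1.18), with an unadjusted p of 0.00799 and a limma adjusted p of 0.860, so that the opposite signs were not separated from the spread after adjustment. Without CD 1, the highest library, the value was −0.27 in HFD against CD (limma adjusted p = 0.916) and −0.36 in CD_DSS against CD (limma adjusted p = 0.142). Without CD_DSS 1, Pparg was called lower in CD_DSS against CD (−0.63, limma adjusted p = 0.0379), and likewise without HFD 1, CD_DSS 1 and HFD_DSS 2 (−0.63, limma adjusted p = 0.0386). Of all 10806 genes, 1271 and 1924 were then called, beside 519 with all libraries.

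**Figure D3:**
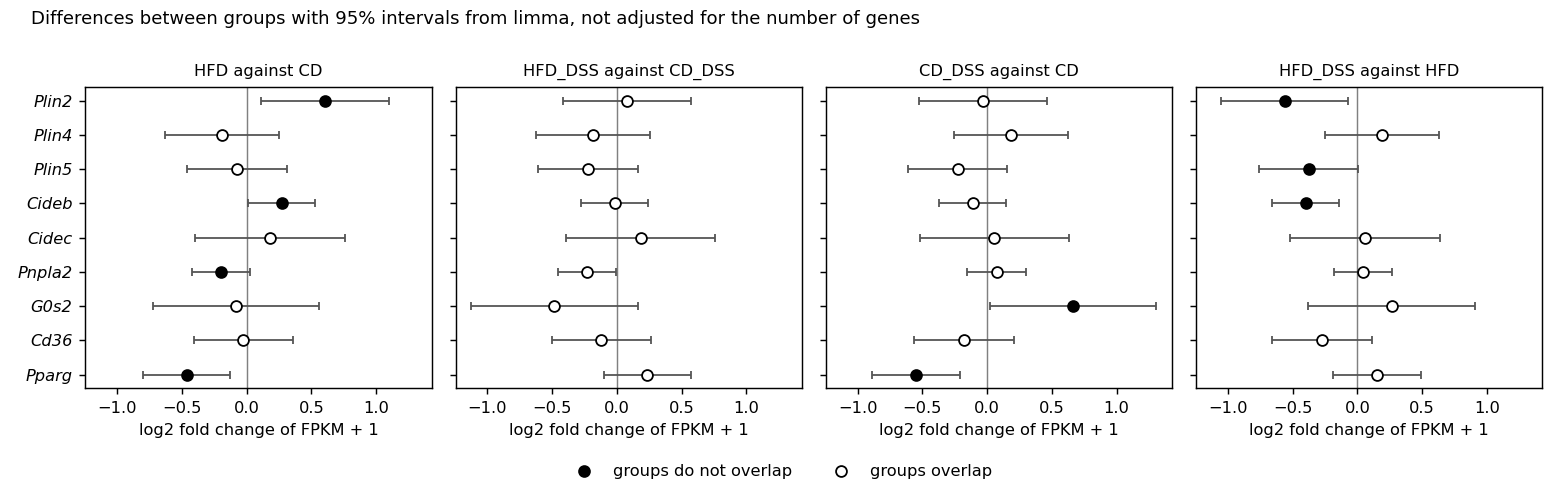
Log2 fold change of FPKM + 1 with its 95% interval from limma for the 9 tested genes in 4 comparisons, with filled points where the groups did not overlap. Plin2 is at 0.61 in HFD against CD and −0.56 in HFD_DSS against HFD, Pparg is at −0.46 and −0.55 in HFD and CD_DSS against CD, and no gene passed in any of them.

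In the genes whose groups overlapped, the log2 fold changes ranged from −0.19 (Plin4) to 0.18 (Cidec) in HFD against CD, from −0.23 (Plin5) to 0.18 (Plin4) in CD_DSS against CD, from −0.27 (Cd36) to 0.26 (G0s2) in HFD_DSS against HFD and from −0.48 (G0s2) to 0.24 (Pparg) in HFD_DSS against CD_DSS. The median of the 9 genes for the averaged DSS effect was −0.20, beside −0.01 over all genes tested, and for the averaged diet effect −0.11 beside 0.00. The signs were mixed, with 44.4% of the 9 genes above 0 for DSS beside 48.2% of all genes, and 33.3% beside 51.0% for diet. Of the PPARγ target genes named at the start, which need not be all among the 10, Plin2 lay higher in all HFD than in all CD libraries. Plin4, Cidec and Cd36 overlapped between these groups and Pparg itself lay lower, none of them called.

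Pparg and Pnpla3 were the pair of the 10 genes with the most similar pattern over the 12 libraries (mean absolute difference 0.289 SD of the scaled log2 values), followed by Plin2 and Cideb (0.432) and by Cideb and Cd36 (0.593). G0s2 and Pparg were farthest apart (1.40). Among genes tested, again without clone and prediction names, Chrna2 (0.264) and Abcb4 (0.310), the latter a bile canalicular phospholipid transporter, lay nearest to Plin2. Acads (0.273), the short-chain acyl-CoA dehydrogenase of fatty acid oxidation, and Ociad2 (0.276) lay nearest to Cideb. Tlcd1 was the nearest gene both to Pnpla3 (0.281) and to Pparg (0.320). These distances describe 12 libraries that share the 4 groups.

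Other genes of the same processes were taken as lists, none holding the 10 genes. No gene of the 5 lists was called in the 3 diet comparisons or for the difference between DSS effects. The averaged DSS effect called some in each list, beside 8.72% higher and 11.2% lower of all genes tested. Of 16 genes of droplet coat and assembly, 13 were tested. Rab18, a GTPase of the droplet surface, rose (log2 fold change 0.28). Fitm1, which takes part in droplet budding (−0.93), the droplet dehydrogenase gene Hsd17b11 (−0.34) and Dgat2, an enzyme of the last step of triglyceride synthesis (−0.32), fell. The list's median was −0.08.

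Of 12 lipolysis genes, all tested, 4 fell: the microsomal esterase gene Aadac (−0.71), the monoacylglycerol lipase gene Abhd6 (−0.56), hepatic lipase Lipc (−0.53) and Pnpla7 (−0.40), a lysophospholipase gene. Pnpla6, which belongs to the same family as Pnpla7, rose (0.22). The median of the list was −0.26. Aadac had 323 ± 20.2 FPKM in CD, 348 ± 20.7 in HFD, 225 ± 56.7 in CD_DSS and 192 ± 41.2 in HFD_DSS (SD, n = 3).

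In the list of fatty acid uptake, binding and activation, 17 of 19 genes were tested, 6 fell and 1 rose (median −0.13). The acyl-CoA synthetase genes Acsl1 (−0.82), Acsl5 (−0.57) and Acsl4 (−0.40), the liver fatty acid binding protein gene Fabp1 (−0.76) and Got2 (−0.19), a mitochondrial aminotransferase also described as a fatty acid binding protein of the plasma membrane, were among those that fell. Acsl1 had 128 ± 8.66 FPKM in CD, 127 ± 21.7 in HFD, 66.9 ± 15.3 in CD_DSS and 80.9 ± 29.0 in HFD_DSS (SD, n = 3). Fabp7, the fatty acid binding protein first described in brain, rose (0.89), with all 6 DSS libraries at 1.80 to 5.98 FPKM and the 6 others at 0.499 to 1.60.

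Among 17 partners and regulators of PPARγ, all tested, the transcription factor genes Hes1 (1.18) and Klf6 (0.32) rose, and the lipogenic factor gene Srebf1 (−0.81) and the coactivator gene Ppargc1b (−0.43) fell (median −0.08). Hes1 had 2.04 ± 0.395 FPKM in CD and 1.39 ± 0.231 in HFD, against 5.26 ± 1.65 in CD_DSS and 5.15 ± 1.12 in HFD_DSS (SD, n = 3). Of 16 PPARα targets, 15 were tested and Ucp2 (0.54), a mitochondrial carrier gene, rose (median −0.06).

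**Figure D4:**
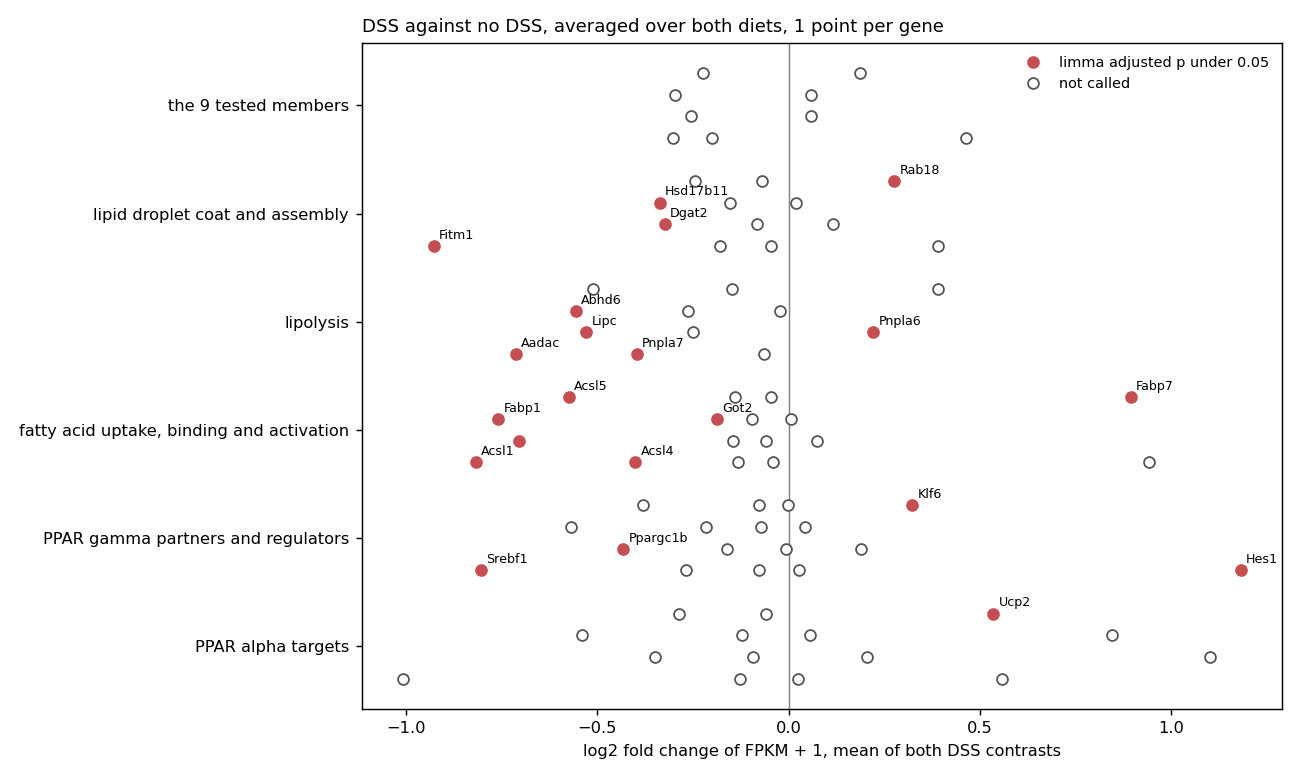
Log2 fold change of FPKM + 1 for the DSS effect averaged over both diets, 1 point per gene, for the 9 tested genes and the tested genes of the 5 lists, with called genes in red. The 9 genes hold no called gene, and the called genes of the lists run from Fitm1 at −0.93 to Hes1 at 1.18.

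On single diets fewer list genes were called. In CD_DSS against CD these were Acsl1 (−0.95, limma adjusted p = 0.0445) and Acsl4 (−0.87, limma adjusted p = 0.0230), which fell, and Hes1 (1.01, limma adjusted p = 0.0180), which rose, beside 2.01% higher and 2.79% lower of all genes. In HFD_DSS against HFD, Aadac (−0.88), Lipc (−0.68) and Hsd17b11 (−0.49) fell and Hes1 (1.35), Fabp7 (1.24) and Klf6 (0.50) rose, beside 1.73% higher and 3.10% lower. Each of these 9 calls on single diets ended without some 1 library, and those of Hes1 and Klf6 on the high-fat diet ended only without HFD 2 (limma adjusted p = 0.0566 and 0.0631). Of the 21 genes called for the averaged effect, 11 kept the call without any 1 library: Hsd17b11, Rab18, Pnpla7, Aadac, Lipc, Fabp7, Acsl1, Acsl5, Srebf1, Hes1 and Klf6. Of these 11, Hsd17b11 and Pnpla7 lost the call with TPM and Srebf1 lost it with no filter. The calls of the other 10, Fitm1, Dgat2, Abhd6, Fabp1, Acsl4 and Ucp2 among them, ended without any of 3 to 10 single libraries, and all of these calls but that of Dgat2 also ended with TPM or with no filter.

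Plin4, Cidec and Pparg are also adipocyte genes, and the adipocyte markers differed in level. Lep was at 0 in all libraries, and Adipoq reached at most 0.121 FPKM. Lipe had 1.16 to 2.01 FPKM and Adrb3 0.464 to 1.93, levels like those of Cidec and Plin4. Cfd had 0 to 3.32 FPKM and was highest in HFD_DSS 2, the library with the highest Cidec. In that library Adipoq, Plin1, Retn and Cidea were at 0, and Lipe (1.54 FPKM) and Adrb3 (0.799) lay within the range of the other libraries. Over all libraries Plin1, Retn and Cidea reached at most 0.0269, 0.0264 and 0.0718 FPKM. Summed over 8 adipocyte markers, 2 of which had a mean of at least 1 FPKM, the level was 2.44 to 3.30 FPKM in CD, 3.45 to 5.37 in HFD, 1.63 to 3.03 in CD_DSS and 2.89 to 5.66 in HFD_DSS. Summed neutrophil markers, 2 of 6 at that level, had 1.18 to 2.37 in CD, 0.981 to 20.6 in HFD, 2.91 to 20.0 in CD_DSS and 3.81 to 49.1 in HFD_DSS. Stellate cell markers, 8 of 8 at that level, had 47.2 to 63.7 in CD, 41.7 to 49.4 in HFD, 58.2 to 63.8 in CD_DSS and 55.9 to 75.3 in HFD_DSS. The part of other cells in the values of the 10 genes was not tested.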

How the data were processed

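Liver RNA was purified on Qiagen RNeasy columns and libraries were made with a SMARTer kit for mRNA, per the labels' protocols. Per the submitters' processing notes, the genome build was mm10. The sources used here do not give the aligner, counter or strand setting. The authors deposited FPKM for each gene, 1 column per library with no pooling. Median-of-ratios factors recomputed on them were 1 in every library, so the values were already on that scale, and that scaling as an alternative could change nothing. Of 54532 gene IDs, 54495 (99.9%) matched GENCODE M21, from which coordinates and overlaps were taken. To recover fragments, FPKM was multiplied by exon length and divided by a step chosen in each library to bring most values near whole numbers. After this fit, 97.0 to 97.3% of values under 500 fragments lay within 0.02 of a whole number. The divisor so found was 0.927 to 1.05 times the recovered fragments of a library.

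The 10806 genes that reached 1 FPKM in 3 or more of 12 libraries were tested on log2(FPKM + 1), which understates changes of low genes. One limma 3.58.1 model in R 4.3.3 held the 4 group means (empirical Bayes with a trend, 8 residual degrees of freedom, two-sided), with Benjamini-Hochberg adjustment over all genes tested. The 7 comparisons were the 4 of single groups, both averaged effects and the difference between the DSS effects. The script was tested on simulated data. Fragments were recovered from FPKM, and voom on them was an alternative. Other alternatives were a pseudocount of 0.1, no filter, a mean of at least 5 FPKM, TPM, other scalings, the groups of a comparison alone, library weights, a robust prior, a replicate block and leaving out libraries. The 10 genes and the lists were chosen with earlier results of these data known. From the lists, genes called by limma are named, at most 6 per list and comparison by adjusted p. Nop9, Saa1 and Mogat1 were named after their values were seen. Ppara, a list gene called in no comparison, and single cell type markers were named outside this rule. Genes near another were ranked by the mean absolute difference of log2 values scaled to unit SD. Tested genes with a clone or prediction name or without a symbol were left out of this ranking. Marker lists were hepatocyte, adipocyte, macrophage, endothelial, stellate cell, cholangiocyte, neutrophil, T and B cell, and platelet and erythroid genes.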

Additional observations from a re-analysis of the deposited data

How the results depend on the processing

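With the settings of the report no gene of the set was called in any comparison, and the counts below are of genes called among the 10. In CD_DSS against CD the count was 1 with no filter on low values (Pnpla3), with library weights (Pparg), without HFD 1, CD_DSS 1 and HFD_DSS 2 (Pparg) and with voom and no filter (Pnpla3), and 0 to 1 when 1 library was left out. In HFD_DSS against HFD it was 2 with library weights and 2 without the 3 libraries (Plin2 and Cideb), and 0 to 2 with 1 library left out. For the averaged DSS effect it was 1 (Cideb) at a mean of at least 5 FPKM, 1 with a robust prior, 1 with voom, 3 without the 3 libraries (Plin2, Cideb, Cd36), 5 with library weights (those and Plin5 and G0s2), and 0 to 2 with 1 library left out. Over all genes, the calls for the averaged DSS effect went from 2157 of 10806 to 4259 with library weights and 3372 without the 3 libraries. They were 2150 with a robust prior, 2193 of 10804 with voom and 1450 of 5273, a larger share, at a mean of at least 5 FPKM. Those in CD_DSS against CD went from 519 to 157 of 25911 with no filter, 2592 with weights and 1924 without the 3 libraries. In HFD_DSS against HFD they went from 522 to 2820 and 2027 under the last 2 and to 130 of 25911 with no filter. With 1 library left out the counts over all genes were 63 to 1271 in CD_DSS against CD, 9 to 904 in HFD_DSS against HFD and 1312 to 2664 for the averaged DSS effect. The cause was not tested.

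The replicate block called 0 of the 10 genes in every comparison. Replicate numbers did not pair the samples: 5 of 18 same-numbered pairs had a correlation of deviations over 0.1 (range −0.356 to 0.258), and the same number was closest in 14 of 36 combinations.

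Signs were followed for the tested genes of the set, and for list genes only in comparisons that called them. Pnpla3 entered with no filter in HFD and CD_DSS against CD. Plin4, Cidec and Cd36 were not followed for the difference between DSS effects. Many of the 2107 gene values under an alternative could not change sign, because the setting leaves the fold change as it is. This holds for a robust prior, another filter, median-of-ratios scaling, the groups of a comparison alone and the replicate block. It holds also where the library left out belongs to a group outside the comparison. Of the 2107 values, 44 changed sign, and none of those had been called. With library weights these were G0s2 (0.0873) and Cd36 (0.0565) in HFD against CD, Pnpla2 in CD_DSS against CD (−0.0292), Cideb in HFD_DSS against CD_DSS (0.0411) and Pnpla2 for the difference between DSS effects (0.0885). Without the 3 libraries these were Cd36 in HFD against CD (0.0746), Cidec (−0.263) and Pnpla2 (−0.0284) in HFD_DSS against HFD, Cideb (0.000668) and Cidec (−0.173) in HFD_DSS against CD_DSS, Cidec for the averaged diet (−0.0102) and DSS effects (−0.1001), Pnpla2 for the averaged DSS effect (−0.0113), and Plin5 (0.0312) and G0s2 (0.00500) for the difference. With 1 library left out, values ranged in HFD against CD from −0.259 to 0.126 (Plin5), −0.264 to 0.269 (G0s2) and −0.0746 to 0.0746 (Cd36). In CD_DSS against CD they ranged from −0.277 to 0.102 (Plin2) and −0.0520 to 0.158 (Cidec), and in HFD_DSS against HFD from −0.292 to 0.332 (Cidec), −0.00442 to 0.131 (Pnpla2) and −0.0849 to 0.448 (G0s2). In HFD_DSS against CD_DSS they ranged from −0.166 to 0.322 (Plin2), −0.121 to 0.0829 (Cideb), −0.166 to 0.457 (Cidec) and −0.294 to 0.00413 (Cd36). They ranged from −0.118 to 0.194 for Cidec in the averaged DSS effect, and from −0.349 to 0.0360 (Plin5) and −0.120 to 0.0580 (Pnpla2) for the difference. Depth limits Pnpla3 most, with 0 to 19 fragments per library.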

Other observations

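Mogat1, which encodes a monoacylglycerol acyltransferase of triglyceride synthesis that is induced in fatty liver, lay under the filter and was not tested. It averaged 0.251 ± 0.0784 FPKM in HFD and 0.0245 ± 0.0425 in CD (SD, n = 3), with all 3 HFD libraries above all CD libraries. Of all genes tested, 6.58% lay so, and Mogat1 was named after its values were seen. Its values were near 0, with CD 1 and CD 2 at 0, and counting error was not computed for it. With DSS, HFD_DSS 2 had 0.439 FPKM, the highest of the 12 libraries, and HFD_DSS 1 was at 0. HFD_DSS 2 was also the highest library of its group in Plin2, Cideb, Cidec, Pnpla2 and Cd36. It was the lowest of its group in Plin5 and lay between the others in Plin4, Pnpla3, G0s2 and Pparg.

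Ppara, the receptor gene that drives fatty acid oxidation in liver, averaged 30.1 ± 2.70 FPKM in CD, 35.3 ± 12.9 in HFD, 32.1 ± 6.35 in CD_DSS and 29.4 ± 9.64 in HFD_DSS (SD, n = 3). It was called in no comparison.

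Summed hepatocyte markers, 5 of 5 with a mean of at least 1 FPKM, had 39076.7 to 43629.3 FPKM in CD, 32767.8 to 37647.4 in HFD, 45348.2 to 48597.9 in CD_DSS and 24000.9 to 45227.4 in HFD_DSS. Cholangiocyte markers, 1 of 5 at that level, had 3.09 to 4.65, 2.46 to 3.02, 5.10 to 6.90 and 5.23 to 5.74 in the same order of groups. T and B cell markers, 0 of 6 at that level, had 1.59 to 1.79, 1.68 to 2.81, 1.12 to 1.30 and 1.25 to 2.12, and platelet and erythroid markers, 3 of 6, had 142 to 210, 150 to 377, 181 to 311 and 107 to 152.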
